A study of Mus musculus with 2 samples.

Results

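Bone morphogenetic protein (BMP) ligands and the genes that BMP-activated SMAD proteins induce were followed in sorted mouse liver endothelium, as 9 genes fixed by name out of 31053 in the count tables. They are the ligands Bmp2 and Bmp6, the targets Id1, Id2, Id3 and Id4, the inhibitory SMADs Smad6 and Smad7, and the transcription factor gene Atoh8. All 9 were found by symbol in both libraries. Single-cell RNA was profiled in liver cells from 1 adult mouse homozygous for the sphinx allele of Gimap5 (sph/sph) and 1 adult mouse heterozygous for it (sph/+), both of C57BL/6 background. The allele changes 1 amino acid of a GTPase that lymphocytes and endothelial cells express. Both mice carry at least 1 copy of the allele, and no wild-type liver was analysed here. Cells had been sorted as negative for the dead-cell dye DAPI and for CD45, a leukocyte protein, and positive for CD31, an endothelial protein, and each mouse gave 1 droplet library (10x Genomics 3' kit, v3). With 1 mouse of each genotype no test between them could be made, and the genotype cannot be told apart from the library.

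BMP ligands bind paired type I and type II receptor kinases, which phosphorylate SMAD1, SMAD5 and SMAD9, and these enter the nucleus with SMAD4 to induce genes such as the Id family and the feedback inhibitors Smad6 and Smad7. In the liver, sinusoidal endothelial cells make BMP2 and BMP6, which act on hepatocytes to induce hepcidin, the hormone that limits iron uptake. Endothelial cells themselves receive BMP9 and BMP10 through the receptor ALK1, so that ligand production and target expression in the same cell need not reflect the same signal.

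The starts of 6 of the 9 members were in the RefSeq promoter table (GRCm38.p6, 250 bases before to 50 after the start). The entries for Smad6, Id2 and Id4 are shown because each holds a SMAD motif of 6 or more letters, and because Id2 and Id4 were both lower in sph/sph. Capitals mark GTCTAGAC, the palindromic SMAD binding element, in Smad6 and GGCGCC, a GC-rich site bound by SMAD1 and SMAD5, in Id2 and Id4. The Smad6 start lies on the minus strand at chr9:64022010-64022309, that of Id2 on the minus strand at chr12:25096043-25096342, and that of Id4 on the plus strand at chr13:48260866-48261165.
Smad6: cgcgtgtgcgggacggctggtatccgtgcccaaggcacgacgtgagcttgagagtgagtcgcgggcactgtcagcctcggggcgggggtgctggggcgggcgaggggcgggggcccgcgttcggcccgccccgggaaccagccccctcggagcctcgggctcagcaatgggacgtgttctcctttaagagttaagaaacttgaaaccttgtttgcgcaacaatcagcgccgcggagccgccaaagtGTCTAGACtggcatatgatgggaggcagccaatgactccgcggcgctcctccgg
Id2: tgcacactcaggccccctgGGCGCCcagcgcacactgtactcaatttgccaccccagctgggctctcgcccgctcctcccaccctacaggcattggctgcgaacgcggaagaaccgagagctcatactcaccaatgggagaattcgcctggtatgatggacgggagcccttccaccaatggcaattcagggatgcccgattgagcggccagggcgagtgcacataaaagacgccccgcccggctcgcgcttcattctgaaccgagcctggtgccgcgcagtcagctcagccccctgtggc
Id4: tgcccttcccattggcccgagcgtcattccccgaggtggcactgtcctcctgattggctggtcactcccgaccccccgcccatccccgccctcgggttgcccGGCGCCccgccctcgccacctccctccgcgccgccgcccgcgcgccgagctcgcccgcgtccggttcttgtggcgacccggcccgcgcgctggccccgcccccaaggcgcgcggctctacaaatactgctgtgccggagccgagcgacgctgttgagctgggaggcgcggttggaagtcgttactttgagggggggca
Both motifs read the same on either strand, and the shorter SMAD core GTCT lies within the palindrome. GTCTAGAC was in 0.213% of 32851 mouse promoters of that length, GGCGCC in 11.9% and GTCT in 88.0% on either strand. Of the other 3 members with an entry used, Atoh8, Bmp6 and Id3, none held GTCTAGAC or GGCGCC in that window. A match is a description of these letters and not a measured binding site.

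There were 16386 barcodes and 68983780 UMIs (unique molecular identifiers, 1 per captured transcript) in sph/sph, and 13136 barcodes and 64460283 UMIs in sph/+. Filtering and doublet removal left 11330 and 10967 cells, of which 10737 (94.8%) and 10058 (91.7%) were endothelial-like, at medians of 3906 and 4347 UMIs. The libraries shared 30 barcodes. The endothelial genes Pecam1 and Cdh5 were at 1046 and 1222 CPM (UMIs scaled to a common library total) in sph/sph and 724 and 868 CPM in sph/+, and Ptprc, which encodes CD45, had 3 UMIs in each. In 21 of 25 clusters, over 95% of cells belonged to a single library. Nearly all sph/+ endothelial cells (97.4%) were liver sinusoidal endothelial cell-like (LSEC-like), against 3 cells of sph/sph. In sph/sph, 68.0% were continuous vascular-like, 10.8% lymphatic-like, 9.2% cycling, 7.7% in an unnamed cluster led by Sprr2b and Tubb3, and 4.3% in clusters high in Vwf, the von Willebrand factor gene of larger vessels. The unnamed cluster had 9 of 12 LSEC markers detected, the number required to be LSEC-like. It was not named so because no gene of the LSEC lists was among its top 10 genes. In sph/+ the Vwf-high clusters held 81 cells and the cycling clusters 121. A gene's level over all cells of a library therefore mixes the level within each cell population with the make-up of that library.

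Summed over all endothelial-like cells, both ligands were lower in sph/sph, while the targets split. Bmp2 and Bmp6, together with the targets Id2 and Id4, were at least 2-fold lower, and Id1 and Atoh8 were at least 2-fold higher. Id3, Smad6 and Smad7 stayed within 2-fold. Thus 2 of the 9 members were higher, where 11.0% of the 7463 measured genes were (at least 20 CPM in either library), and 4 were lower, where 10.6% were. The median log2 ratio was 0.27 over the 7 targets, -0.42 over the 9 members and -0.07 over all measured genes.

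**Figure D1:**
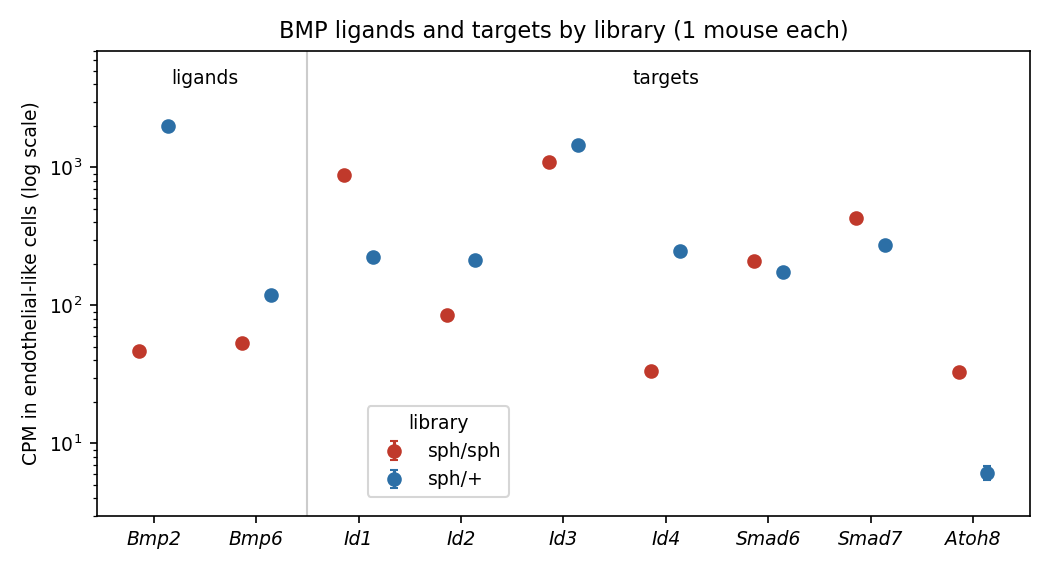
Level of each of the 9 genes in endothelial-like cells, in CPM on a log scale, in the sph/sph library (left point of each pair, red) and the sph/+ library (right point, blue), with 95% exact Poisson intervals that are mostly smaller than the points. Both ligands are lower in sph/sph, Id1 and Atoh8 are higher, and Id2 and Id4 are lower.

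Bmp2, the ligand through which sinusoidal endothelium signals to hepatocytes, lies on chromosome 2 from 133552159 to 133562885 (GRCm38, plus strand). Its level was 46.8 CPM in sph/sph (95% exact Poisson interval 44.9 to 48.7, from 2408 UMIs) and 2003 CPM in sph/+ (1990 to 2016, from 92862 UMIs). It was 42.8-fold lower in sph/sph (41.1 to 44.6). These intervals and all others here cover counting error only, not the spread between mice. After each cell was thinned to 2000 UMIs, a Bmp2 UMI was found in 5.0% of 9827 sph/sph cells and 92.2% of 9642 sph/+ cells (7.6% and 96.3% before thinning). Shallower cells were left out, 910 of sph/sph and 416 of sph/+.

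The remaining Bmp2 of the sph/sph library sat in few cells. The unnamed cluster of 829 cells held 62.4% of its Bmp2 UMIs, and the 464 Vwf-high cells another 28.4%. In the unnamed cluster Bmp2 was at 401 CPM (381 to 422), with a UMI in 43.0% of thinned cells. In the 7298 continuous vascular-like cells it was at 3.20 CPM (2.58 to 3.94), with a UMI in 0.5% of thinned cells. Hepatocyte-like cells of the same library, which are not a main source of Bmp2 in the liver, had 15.2 CPM (4.15 to 39.0) and a UMI in 4.4% of 45 thinned cells, at a median of 1778 UMIs. That hepatocyte-like level rested on 4 UMIs, with a UMI in 1.7% of all 118 cells before thinning, too few to fix a background. Bmp2 in the continuous vascular-like cells (median 3499 UMIs) was no higher than in the hepatocyte-like cells. The 1155 lymphatic-like cells were no higher either, with 2.59 CPM (1.75 to 3.70).

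Across the sph/+ LSEC-like clusters, Bmp2 was highest in the 563 cells led by Flrt1 and Gatm, at 2506 CPM (2458 to 2555). Cells led by the central-vein-side genes Wnt2, Kit and Rspo3 had 2388 CPM, cells led by Aass and Oit3 had 2250 CPM, and cells led by the portal-side genes Msr1 and Ntn4 had 1628 CPM (1607 to 1650). The first 4 levels in this order differed by more than their counting intervals, and the fifth, in cycling sph/+ cells at 1577 CPM (1492 to 1665), overlapped the fourth. Bmp2 was far lower, at 246 CPM (225 to 269), in 386 LSEC-like cells led by Adgrg6 and Nrg1. It was 355 CPM (300 to 419) in the 79 sph/+ cells of the Rspo3, Wnt9b and Vwf cluster. The background of free RNA was not measured in sph/+, because its classes outside the comparison carried endothelial markers (12 of 12 LSEC markers in the cholangiocyte-marked cells, with Bmp2 at 759 CPM) or held few cells (12 hepatocyte-like cells). The part of free RNA in the Bmp2 of these 2 sph/+ clusters was not tested. Among 16 neighbouring pairs in the order of the 17 clusters, 8 had overlapping intervals.

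Bmp6, the other iron-regulating ligand of sinusoidal endothelium, lies on chromosome 13 from 38345107 to 38500302 (plus strand). It was at 53.9 CPM in sph/sph (51.9 to 55.9) and 118 CPM in sph/+ (115 to 121), 2.19-fold lower in sph/sph (2.09 to 2.29). Without the lymphatic-like cells the levels were 60.1 and 118 CPM, a log2 ratio of -0.96, which is just inside 2-fold. Unlike Bmp2, it was above the 15.2 CPM of sph/sph hepatocyte-like cells (4.15 to 39.0) in every sph/sph cluster, though the 3 lowest lay within that interval. The sph/sph clusters ranged from 32.4 to 123 CPM and the sph/+ clusters from 46.9 to 141 CPM, and 14 of 16 neighbouring pairs in their order had overlapping intervals. The highest sph/sph level was in the 313 cells led by Vwf and Fbln5, at 123 CPM (107 to 140). In sph/+ the highest was in the Aass and Oit3 cluster, at 141 CPM (135 to 148). A Bmp6 UMI was found in 10.0% of thinned sph/sph cells and 21.1% of thinned sph/+ cells, against 2.2% of the sph/sph hepatocyte-like cells.

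**Figure D2:**
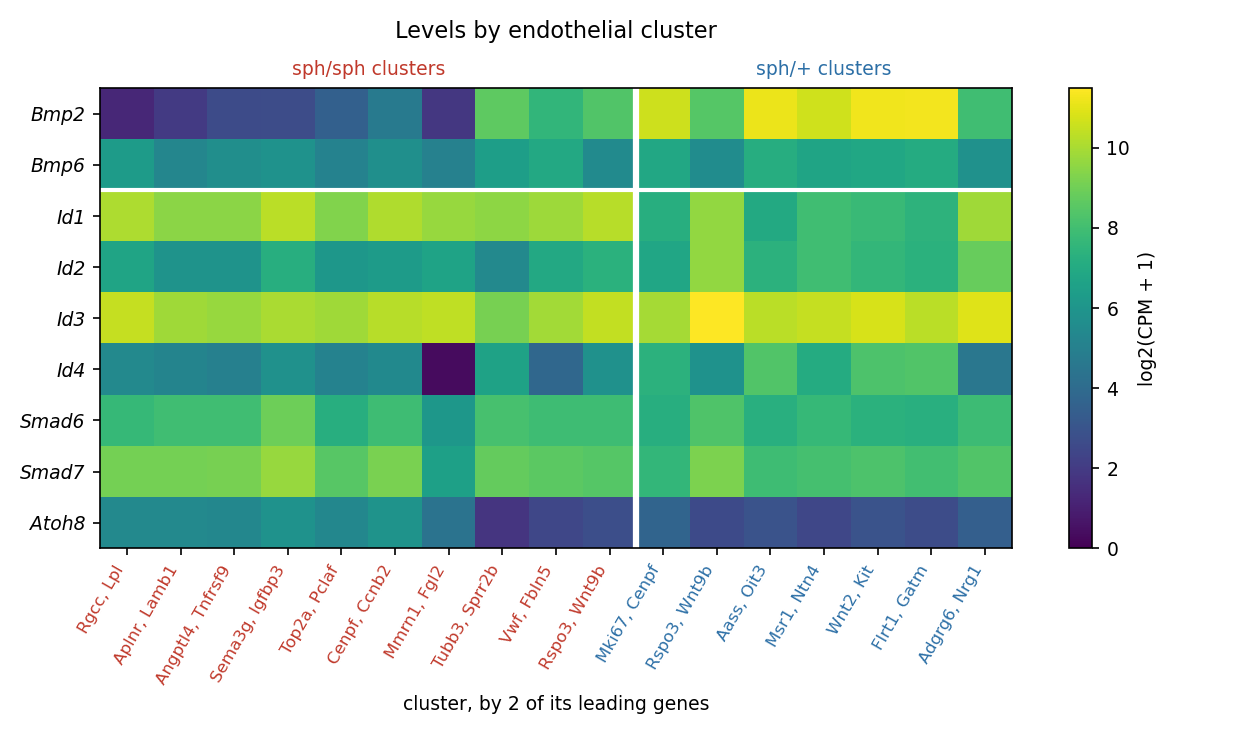
Levels of the 9 genes (rows, ligands above the white line) as log2(CPM + 1) in the endothelial clusters with at least 50 cells of a library (columns, 10 of sph/sph on the left in red and 7 of sph/+ on the right in blue), each named by 2 of its leading genes. Bmp2 is high in 5 sph/+ columns, Id1 is high in all sph/sph columns and in 2 of sph/+, and Id4 is almost absent from the Mmrn1 and Fgl2 column.

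Id1, an inhibitor of basic helix-loop-helix transcription factors and a direct BMP-SMAD target, lies on chromosome 2 from 152736251 to 152737410 (plus strand). It was at 874 CPM in sph/sph (866 to 882) and 226 CPM in sph/+ (222 to 230), 3.87-fold higher in sph/sph (3.79 to 3.95). Thinned cells with an Id1 UMI made up 70.0% of sph/sph and 27.8% of sph/+ cells, against 33.3% of 45 sph/sph hepatocyte-like cells.

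Every one of the 10 sph/sph clusters had more Id1 than 5 of the 7 sph/+ clusters. The sph/sph clusters ran from 643 CPM (614 to 672), in cycling cells led by Top2a, to 1248 CPM (1208 to 1288), in cells led by the arterial gene Sema3g and by Igfbp3. The 5 sph/+ clusters ran from 125 CPM (119 to 131), in Aass and Oit3 cells, to 246 CPM (238 to 254), in Msr1 and Ntn4 cells. The other 2 sph/+ clusters overlapped the sph/sph range. They were the Adgrg6 and Nrg1 cells, at 910 CPM (869 to 953), and the Rspo3 and Wnt9b cells, at 797 CPM (713 to 889). These were also the 2 sph/+ clusters with the least Bmp2. Genes that respond to tissue dissociation took 0.603% of UMIs in sph/sph and 0.453% in sph/+, with 9 of 21 measured genes at least 2-fold higher and 2 lower. In sph/+ they took 0.75% in the Adgrg6 and Nrg1 cells, 0.59% in the Flrt1 and Gatm cells, 0.55% in the Rspo3 and Wnt9b cells and 0.34% in the Aass and Oit3 cells. The Flrt1 and Gatm cells had Id1 at 172 CPM. In sph/sph these genes took 0.91% in the Sema3g and Igfbp3 cells and 0.90% in the Rspo3 and Wnt9b cells. Those were the 2 clusters highest in Id1, at 1248 and 1210 CPM. They took 0.80% in cells led by Aplnr and Lamb1, with Id1 at 714 CPM. In cycling cells led by Cenpf they took 0.48%, with Id1 at 1095 CPM. The part of dissociation-responsive genes in the Id1 difference was not tested.

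Id2, a related inhibitor that is also expressed by many blood and epithelial cells, was at 85.6 CPM in sph/sph (83.1 to 88.1) and 212 CPM in sph/+ (208 to 216). It was 2.47-fold lower in sph/sph (2.39 to 2.56), the opposite direction to Id1. Cluster levels ranged from 41.1 to 159 CPM in sph/sph and from 112 to 795 CPM in sph/+. The sph/+ maximum was in the Rspo3 and Wnt9b cells and the sph/sph minimum in the unnamed cluster. The hepatocyte-like cells of sph/sph had 358 CPM, above all of its endothelial clusters.

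Id3 had a ratio of 0.750 (0.741 to 0.758), at 1098 CPM in sph/sph and 1465 CPM in sph/+. Its ranges over clusters overlapped, at 566 to 1411 CPM in sph/sph and 996 to 2873 CPM in sph/+. In sph/sph, 27.3% of Id3 UMIs lay in lymphatic-like cells, and without those the levels were 1030 and 1465 CPM. A UMI was found in 79.1% of thinned sph/sph cells and 88.5% of thinned sph/+ cells, against 68.9% of the sph/sph hepatocyte-like cells.

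Id4, which also encodes an inhibitor of helix-loop-helix factors, was at 33.4 CPM in sph/sph (31.8 to 35.0) and 250 CPM in sph/+ (245 to 255), 7.48-fold lower in sph/sph (7.11 to 7.88). Thinned cells with an Id4 UMI made up 6.8% of sph/sph and 34.6% of sph/+ cells, against 2.2% of sph/sph hepatocyte-like cells. Among sph/sph clusters the unnamed one was highest, at 96.7 CPM (87.0 to 107). The lymphatic-like cells had 3 UMIs in all, 0.26 CPM (0.05 to 0.76). In sph/+ it was 335, 334 and 312 CPM in the Flrt1, Aass and Wnt2 clusters and 135 CPM (129 to 141) in the portal-side Msr1 and Ntn4 cluster. It was lowest in the Adgrg6 and Nrg1 cells, at 22.6 CPM (16.5 to 30.3), where Id1 was highest.

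Smad6, which blocks BMP type I receptors and SMAD1, differed little over all cells, at 210 CPM in sph/sph and 174 CPM in sph/+, a ratio of 1.21 (1.17 to 1.24). Smad7, which blocks both TGF-beta and BMP receptors, was at 433 CPM in sph/sph and 275 CPM in sph/+, a ratio of 1.58 (1.54 to 1.61). Without the lymphatic-like cells these ratios were 1.44 and 1.93. The lymphatic-like cells were the lowest of the sph/sph clusters for both, at 66.2 CPM of Smad6 and 90.4 CPM of Smad7. The Sema3g and Igfbp3 cells were the highest, at 498 CPM of Smad6 and 849 CPM of Smad7. In sph/+ both were highest in the Rspo3 and Wnt9b cells, at 323 and 605 CPM.

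Atoh8, a basic helix-loop-helix factor gene that BMP signalling induces in endothelium, lies on chromosome 6 from 72206177 to 72235577 (minus strand). It was at 32.8 CPM in sph/sph (31.3 to 34.4, from 1689 UMIs) and 6.15 CPM in sph/+ (5.46 to 6.91, from 285 UMIs). It was 5.34-fold higher in sph/sph (4.71 to 6.07). Thinned cells with a UMI made up 6.7% of sph/sph and 1.2% of sph/+ cells. No UMI was found in 45 thinned sph/sph hepatocyte-like cells, whose interval reached 7.87%. Over all 118 hepatocyte-like cells of sph/sph Atoh8 had 5 UMIs, at 19.0 CPM (6.18 to 44.4). Those cells therefore do not set a background below the sph/sph share or level. Within sph/sph the share was 7.9% of continuous vascular-like cells and 0.5% of the unnamed cluster. In sph/sph, 70.6% of its UMIs lay in continuous vascular-like cells. Within sph/sph, the continuous vascular-like and cycling clusters had 38.5 to 58.7 CPM and the lymphatic-like cells 19.8 CPM. The Vwf-high clusters had 4.39 and 5.85 CPM and the unnamed cluster 2.40 CPM (1.10 to 4.56), within or below the 4.38 to 12.2 CPM of the sph/+ clusters. In sph/sph, Atoh8 was thus low in the same 3 clusters that held most of the Bmp2. In sph/+, the cholangiocyte-marked cells had 55.0 CPM, above every endothelial cluster of that library.

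Ligand and target levels were set side by side across the 17 clusters, which share their libraries and are not replicates, so the coefficients describe these clusters only. Bmp2 and Id4 ran in parallel over all 17 (Pearson 0.81, Spearman 0.83, on log2(CPM + 20)). The coefficients were 0.39 and 0.52 over the 10 sph/sph clusters and 0.97 and 0.93 over the 7 sph/+ clusters. Bmp2 and Id1 had coefficients of -0.78 and -0.60 over all clusters and 0.11 and 0.16 within sph/sph, where Id1 was high at every Bmp2 level. Within sph/+ they were -0.95 and -0.61, and the 2 clusters with the least Bmp2 stood far from the other 5. Smad6 and Smad7 had 0.91 and 0.64 within sph/sph and 0.89 and 0.96 within sph/+. Id1 and Id3 had -0.05 and 0.11 over all clusters, against 0.63 and 0.66 within sph/sph and 0.85 and 0.89 within sph/+.

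**Figure D3:**
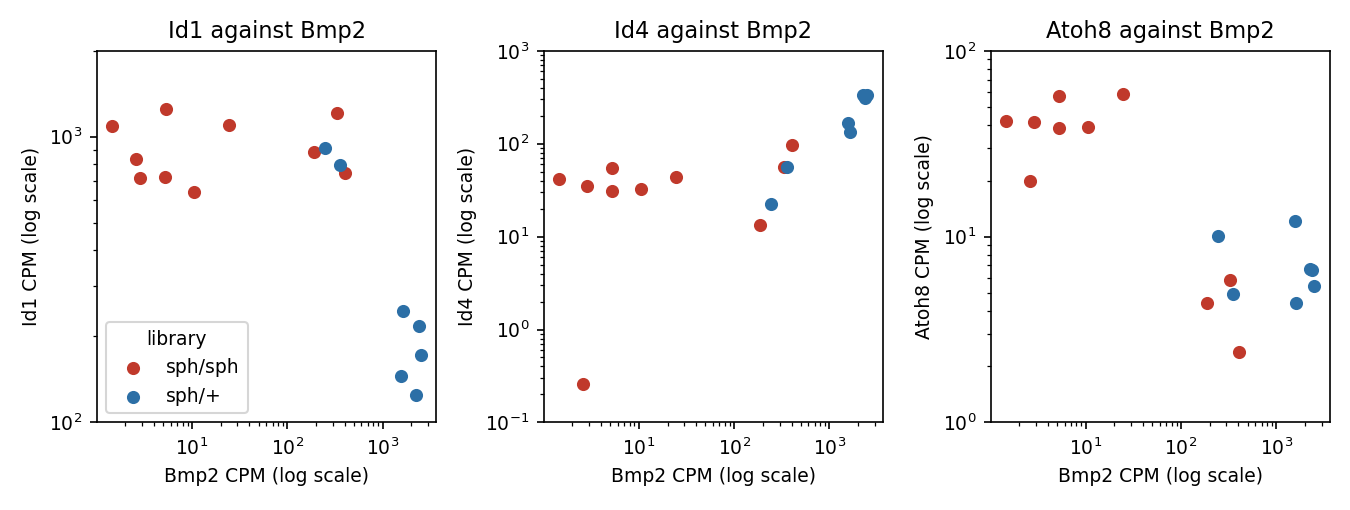
Id1 (left), Id4 (middle) and Atoh8 (right) against Bmp2, all in CPM on log scales, with 1 point for each endothelial cluster of at least 50 cells in the sph/sph library (red, 10) or the sph/+ library (blue, 7). Id1 is low only in the 5 sph/+ clusters with Bmp2 at or above 1577 CPM, Id4 is highest in those clusters, and Atoh8 is highest in sph/sph clusters with little Bmp2.

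Within single LSEC-like cells of sph/+, Id1 was found less often in cells with a Bmp2 UMI. At 2000 UMIs per cell, 25.9% of 8707 cells with Bmp2 had an Id1 UMI (25.004 to 26.9), and 49.4% of 688 cells without it (45.6 to 53.2). Cluster make-up entered this contrast, because the Adgrg6 and Nrg1 cells were low in Bmp2 and high in Id1. Within that cluster the shares were 72.4% with Bmp2 and 69.9% without. They were 20.04% and 17.4% in the Aass and Oit3 cells, 29.1% and 42.6% in the Msr1 and Ntn4 cells, and 27.8% and 46.3% in the Wnt2 and Kit cells, and the intervals stood apart in the Msr1 and Ntn4 cells (27.4 to 30.9 against 36.7 to 48.8) and the Wnt2 and Kit cells (26.0 to 29.7 against 34.0 to 58.9). Id4 went the other way, in 36.4% of LSEC-like cells with Bmp2 and 15.8% of those without, but within each of these 4 clusters its intervals overlapped. In the sph/sph unnamed cluster, Id1 was found in 66.8% of cells with a Bmp2 UMI and 70.2% of cells without, with overlapping intervals. Id4 was found there in 23.3% and 14.8%, and its intervals stood apart. Some targets were also found together. In continuous vascular-like sph/sph cells, Id3 was in 83.5% of cells with an Id1 UMI and 72.1% of those without, and Smad7 in 63.1% and 52.4%. These pooled shares mix clusters. Within the Angptl4 and Tnfrsf9 cells Id3 was in 74.0% and 71.8%, and within the Sema3g and Igfbp3 cells Smad7 was in 78.0% and 77.2%, both with overlapping intervals. Over all continuous vascular-like cells the intervals also overlapped for Id4, at 7.3% and 5.7%, and Atoh8, at 8.3% and 6.7%.

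Only 1 endothelial cluster, led by Rspo3, Wnt9b and Vwf, had at least 50 cells of each library. In it Id1, Id2 and Id3 kept their library-wide directions, while Smad6 and Smad7 had the opposite ones. It held 151 sph/sph and 79 sph/+ cells. Bmp2 was at 330 CPM in sph/sph and 355 CPM in sph/+, a ratio of 0.929 (0.762 to 1.14). The LSEC genes Stab2, Clec4g and Fcgr2b were at 2.92, 337 and 0.974 CPM in sph/sph. In sph/+ these LSEC genes were at 79.0, 862 and 227 CPM. The part of free RNA from LSEC-like cells in the sph/+ Bmp2 level was not tested. Id1 was 1.52-fold higher in sph/sph (1.34 to 1.72), at 1210 and 797 CPM. Id2 was 5.005-fold lower in sph/sph, at 159 CPM against 795 CPM in sph/+, and Id3 2.10-fold lower, at 1369 against 2873 CPM. Smad6 was at 245 CPM in sph/sph and 323 CPM in sph/+, a ratio of 0.756 (0.610 to 0.941). Smad7 was lower too, with 353 CPM in sph/sph and 605 CPM in sph/+, a ratio of 0.583 (0.495 to 0.689). Bmp6 and Id4 had intervals of the ratio that included 1, and Atoh8 had 6 and 2 UMIs.

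The unnamed sph/sph cluster had 9 of 12 LSEC markers and 8 of 15 continuous vascular markers detected, and was set beside the sph/+ LSEC-like cells. The LSEC genes Stab2 and Clec4g were at 277 and 516 CPM in it, against 1365 and 3774 CPM in the LSEC-like cells, and the continuous marker Cd34 was at 340 against 26.9 CPM. Bmp2 was 5.05-fold lower, at 401 against 2025 CPM, and Id4 2.62-fold lower, at 96.7 against 254 CPM. Id1 was 3.33-fold higher, at 744 against 224 CPM, against 3.87-fold over all cells. Id2 was 5.10-fold lower and Id3 2.59-fold lower. Smad6 and Smad7 had ratios of 1.63 and 1.58. Atoh8 was at 2.40 CPM in the unnamed cluster and 6.00 CPM in the LSEC-like cells. Its higher level over the sph/sph library was therefore not seen in this cluster.

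**Figure D4:**
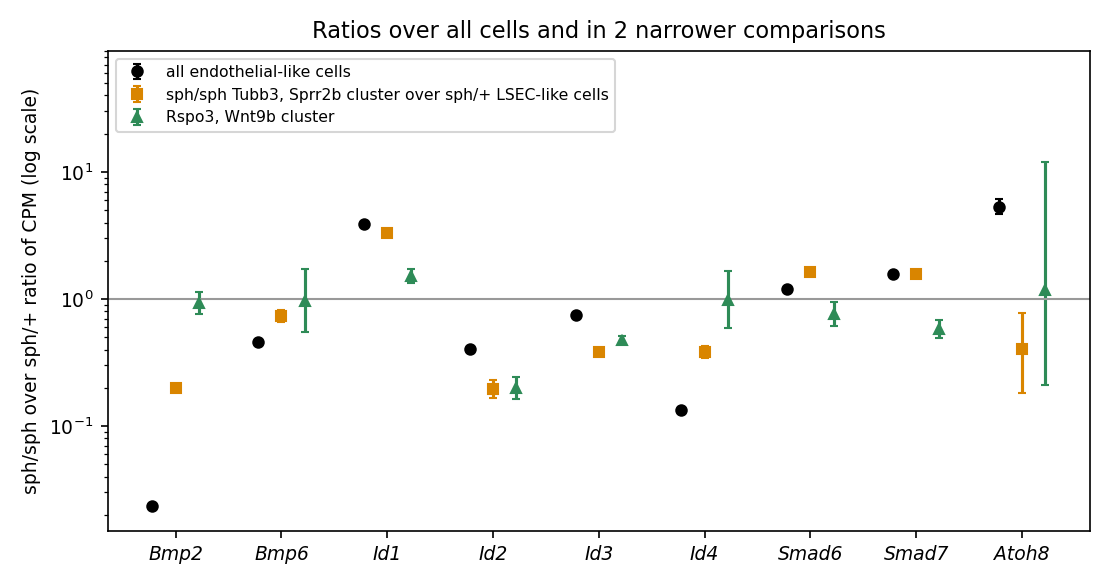
Ratio of CPM, sph/sph over sph/+, on a log scale for each of the 9 genes over all endothelial-like cells (black circles), for the sph/sph Tubb3 and Sprr2b cluster over the sph/+ LSEC-like cells (orange squares), and in the Rspo3 and Wnt9b cluster (green triangles), with 95% counting intervals. Id1 is above 1 and Id2 and Id3 are below 1 in all 3 comparisons, while Bmp2 moves from 0.023 over all cells to 0.929 in the Rspo3 and Wnt9b cluster. The part of free RNA in the sph/+ Bmp2 level of that cluster was not tested.

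By their pattern over the 17 clusters, the genes most like Bmp2 were Tpbgl, Plxnc1, Oit3, Clec4g and Cyp26b1, with Pearson coefficients of 0.990 to 0.979 among 7463 genes. Those most like Bmp6 were Xiap, Pip4k2a, Prkaa1, Cmtm8 and Cish, at 0.910 to 0.871. For Id1 they were Hist1h2bc, Zyx, Btg1, Acadvl and Ahnak, at 0.962 to 0.929.

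Among 54 other genes of the pathway, 30 were measured, of which 10 were at least 2-fold higher and 5 at least 2-fold lower in sph/sph, with a median log2 ratio of 0.31. Over all measured genes the shares were 11.0% and 10.6%, and each list below holds few genes. Of the other ligands, Bmp4, made by vascular and mesenchymal cells, was at 58.1 CPM in sph/sph and 4.75 CPM in sph/+ (log2 ratio 3.36), while the activin subunit gene Inhbb was at 33.9 and 72.3 CPM (-1.07). Bmp10 and Gdf2, which encodes BMP9, were under the floor, with 1 and 2 UMIs in sph/sph and 4 and 50 UMIs in sph/+. Receptors and co-receptors had 3 of 7 measured genes lower and 1 higher, with a median of -0.91. The type II receptor gene Bmpr2 was at 221 CPM in sph/sph and 583 CPM in sph/+ (-1.39), the co-receptor gene Tgfbr3 had a log2 ratio of -2.22, and Hfe, which cooperates in iron sensing, -1.80. Acvrl1, which encodes ALK1, was higher, at 109 CPM in sph/sph and 51.9 CPM in sph/+ (1.05). None of the 3 measured effector SMAD genes passed 2-fold, with Smad5 at 0.68, Smad1 at -0.43 and Smad4 at -0.60.

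Extracellular modulators had 3 of 5 measured genes higher and 0 lower, with a median of 1.24. Fst, the activin and BMP binding protein follistatin, had 2940 UMIs in sph/sph (57.1 CPM) and 0 in sph/+, at least 883-fold higher against the limit of 3 UMIs over the sph/+ cells. Fstl1, a follistatin-like secreted protein, was at 205 and 6.28 CPM, and Mgp, a BMP-binding matrix protein, had a log2 ratio of 1.24 and Twsg1 0.94. In sph/sph, 90.5% of Fst, 50.6% of Fstl1, 46.7% of Mgp and 36.5% of Bmp4 UMIs lay in the lymphatic-like cells. Without them Fst was at 6.99 CPM in sph/sph, under the floor, whereas Fstl1 was at 131 CPM in sph/sph and 6.07 CPM in sph/+. Bmp4 was then at 47.6 and 4.75 CPM. Mgp was at 32.1 and 19.2 CPM, a log2 ratio of 0.71, which is inside 2-fold. Of 4 extracellular modulators still measured, 2 were higher. Those cells also carried Dcn, a fibroblast gene, at 1382 CPM and Prox1, the lymphatic regulator, at 479 CPM, and over all endothelial-like cells the 13 stellate and fibroblast markers summed to 393 CPM in sph/sph and 57.9 CPM in sph/+. Of those 13, 2 were at least 2-fold higher and 0 were at 0 in either library. Their part in these modulator levels was not tested. In the Rspo3 and Wnt9b cluster Mgp was lower in sph/sph, at 66.3 CPM against 1234 CPM in sph/+, and Bmp4 at 320 against 422 CPM. Fst and Fstl1 were higher in sph/sph there, at 64.3 and 385 CPM against 0 and 222 CPM. Of the sph/+ Mgp UMIs, 56.1% lay in the 79 sph/+ cells of that cluster.

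Among membrane and nuclear modulators, 1 of 8 measured genes passed 2-fold. This was Pmepa1, a TGF-beta-induced inhibitor, at 154 CPM in sph/sph and 41.0 CPM in sph/+ (log2 ratio 1.89), while Skil (0.55), Ski (-0.38) and Smurf1 (0.36) stayed inside it. Other endothelial genes that BMP9 or BMP signals can induce were mostly higher, 4 of 5 measured, with 1 lower and a median of 2.36. The Notch-shared target Hey1 was at 136 CPM in sph/sph and 4.72 CPM in sph/+ (4.58), the netrin receptor gene Unc5b at 143 and 8.22 CPM (3.97), and Edn1, which encodes endothelin-1, at 157 and 29.8 CPM (2.36). Gja4, an arterial connexin gene, was lower, at 110 and 319 CPM (-1.52). The 9 arterial markers, which include Hey1, Gja4 and Gja5, summed to 867 CPM in sph/sph and 737 CPM in sph/+, and the 9 angiogenic markers to 1275 and 78.9 CPM. In the Rspo3 and Wnt9b cluster Edn1 went the other way, at 148 CPM in sph/sph (125 to 174) and 669 CPM in sph/+ (592 to 754). Gja4 was lower in sph/sph there too, at 173 and 496 CPM, and the intervals of Hey1 and Unc5b overlapped. In sph/+, 70.1% of Edn1 UMIs lay in the Adgrg6 and Nrg1 cells, at 486 CPM. The part of cell make-up in these target levels was not tested.

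**Figure D5:**
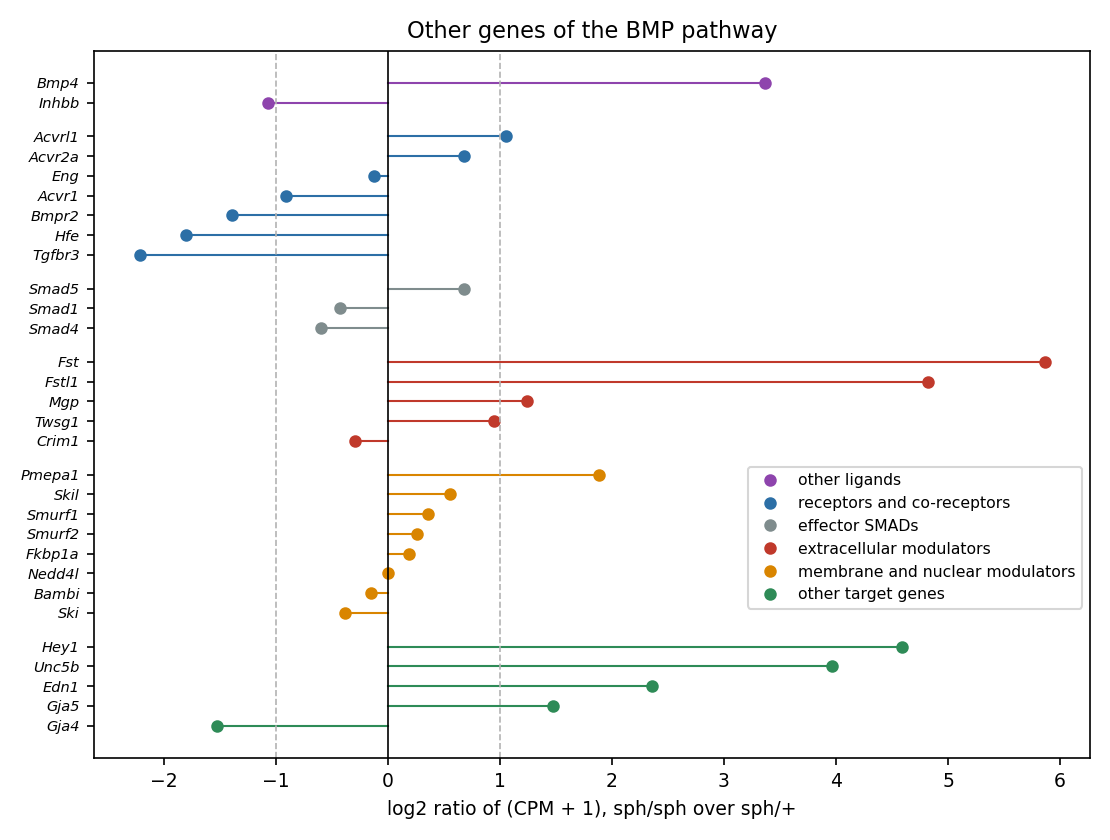
Log2 ratio of (CPM + 1), sph/sph over sph/+, over all endothelial-like cells for the 30 measured pathway genes outside the 9 members, coloured by role, with dashed lines at 2-fold. Of the 7 receptor genes, 3 lie left of the lower line and 1 right of the upper line, and 4 of the 5 other target genes lie right of the upper line.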

How the data were processed

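The deposited values are raw UMI counts per gene and barcode, with no normalization by the authors. The authors ran Cell Ranger 3.0 with the mm10 build, per the submitters' processing notes, and the software version is 3.1.0, per the file headers. Which annotation release they counted on is not given in the sources used here. Barcodes were kept with at least 500 genes, at least 1000 UMIs and at most 15% mitochondrial UMIs, which left 13094 in sph/sph and 12304 in sph/+. Scrublet in scanpy 1.11.5 found 0 and 1 doublets by its automatic threshold, so the highest scores at the expected rates of 13.1% and 10.5% were removed (1764 and 1337 barcodes). The 2 libraries were clustered jointly, with no integration, from 2000 variable genes and 30 components (leidenalg 0.10.2, resolution 1), with the members and other pathway genes kept out of the variable genes. Clusters were named from marker lists and the top 10 genes. The numbers of markers required were set after the clusters had been seen. Clusters led by another cell type's markers were left out of the comparison. They held 344 sph/sph and 91 sph/+ cells marked by hepatocyte genes and, among others, 437 sph/+ cells marked by stellate genes.

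Counts were summed over the endothelial-like cells of each library (51468149 UMIs in sph/sph and 46353421 in sph/+) and scaled to CPM. The log2 ratio was taken after 1 CPM was added to both. A gene was measured at 20 CPM in either library and counted at 2-fold. Poisson, Clopper-Pearson and ratio intervals are exact, at 95%, and cover counting error only. The limit for a count of 0 is 3 counts. The scripts were tested on simulated counts. All 9 members are named whatever their values, with up to 4 measured genes with the largest absolute log2 ratio in each pathway list, the 5 genes most like each of Bmp2, Bmp6 and Id1, and check genes. The members and lists were chosen with earlier results of these data known. Gene positions are from GENCODE M21. Alternatives tried are given in the closing section.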

Additional observations from a re-analysis of the deposited data

Results flagged for a closer look

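Cells left out of the comparison because hepatocyte genes led their cluster also carried endothelial markers, 344 cells in sph/sph and 91 in sph/+. Their main sph/sph cluster had 14 of 15 continuous vascular markers detected and their sph/+ cluster 12 of 12 LSEC markers. Id1, Smad7 and Atoh8 were higher in sph/sph there too, and Bmp2, Bmp6 and Id4 were lower. Id1 was at 997 CPM in these sph/sph cells and 201 CPM in those of sph/+. Smad7 was at 551 CPM in sph/sph and 267 CPM in sph/+. Atoh8 was at 47.8 CPM in sph/sph and 5.57 CPM in sph/+. Bmp2 was at 16.7 CPM in sph/sph and 2050 CPM in sph/+, Bmp6 at 77.5 and 134 CPM, and Id4 at 33.4 and 202 CPM. Intervals overlapped for Id2, at 148 CPM in sph/sph and 193 CPM in sph/+, Id3, at 1242 and 1330 CPM, and Smad6, at 265 and 197 CPM. For Id1, Smad7, Atoh8, Bmp2, Bmp6 and Id4 the directions were those of the endothelial-like cells. These cells took no part in that comparison but came from the same 2 libraries.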

How the results depend on the processing

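Over 16 alternatives (doublets kept, a limit of 10% mitochondrial UMIs, all barcodes, equal weight per cell, thinning to 2000 UMIs, other scalings, pseudocount and floors, and classes left out or added), 2 members were higher in each, and 4 were lower in each except the one without lymphatic-like cells, with 3. The lower floor and the run without a floor could not change these counts, because all 9 members already reached 20 CPM in a library. No ratio past 2-fold changed sign. The log2 ratio ranged from -5.67 to -5.05 for Bmp2, -1.14 to -0.96 for Bmp6, -1.50 to -1.22 for Id2, -2.98 to -2.51 for Id4, 1.89 to 2.02 for Id1 and 1.76 to 2.63 for Atoh8. Id3 ranged from -0.51 to -0.34, Smad6 from 0.20 to 0.53 and Smad7 from 0.61 to 0.95. Median-of-ratios and TMM scaling each moved all genes by 0.07. The addition of clusters led by another type's markers was chosen after the data had been seen, as were pathway counts without lymphatic-like cells, which gave 10 higher and 6 lower of 30. Leaving out marked clusters was not run as an alternative because the main comparison already does so. Over 3 clustering alternatives, 8 of 108 subtype levels left their counting interval, all in cycling sph/sph cells. These levels covered sph/+ LSEC-like cells and the continuous vascular-like, lymphatic-like and cycling cells of sph/sph. The unnamed and Vwf-high clusters were not among them. Atoh8 in single sph/+ clusters rested on few UMIs. No paired analysis was possible because there was 1 mouse per genotype.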

Other observations

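Hamp, which encodes hepcidin and is the hepatocyte gene that BMP2 and BMP6 induce, was counted in endothelial-like cells of sph/sph. It had 4631 UMIs there (89.98 CPM) and 19 UMIs in sph/+ (0.410 CPM). In sph/sph, 98.3% of these UMIs lay in lymphatic-like cells, at 394 CPM (383 to 405), with a UMI in 31.4% of those cells. Albumin (Alb), the most abundant hepatocyte transcript, was at 11.2 CPM in the same cells, so that there were 3529 Hamp UMIs per 100 Alb UMIs. In the sph/sph hepatocyte-like cells Hamp was at 278 CPM and Alb at 30778 CPM, or 0.9 Hamp UMIs per 100 Alb UMIs. Without the lymphatic-like cells, Hamp had 78 UMIs in sph/sph and 19 in sph/+. These cells stood apart in depth too, with a median of 9770 UMIs against 3906 over all endothelial-like cells of sph/sph. They were almost absent from sph/+, with 8 cells. Whether these UMIs come from transcription of Hamp in the lymphatic-like cells was not tested.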
